A study of Mus musculus with 8 samples.

Results

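The 10 genes described here encode transcription factors of the T cell lineage: Tcf7, Lef1, Gata3, Bcl11b, Satb1, Tox, Runx1, Runx3, Ets1 and Zbtb7b. They are a named list, drawn up with earlier results of these data known, out of 21728 protein-coding genes of the autosomes and X. Each locus was the annotated gene body with 20 kb on either side (GENCODE mouse release 21, build GRCm38/mm10). The 10 loci held 18313 CpGs listed in every library, out of 18684786 across the genome.

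The assay was oxidative bisulfite sequencing of whole genomes (WGoxBS), in which cytosines that stay unconverted are read as 5-methylcytosine (5mC). The cells came from spleens of untreated C57BL/6J mice of 6 to 8 weeks and formed 4 groups of 2 samples, B and T cells of females and of males. The T cells were naive CD4+ cells sorted as CD62L high, CD44 low and CD25-, after depletion of cells carrying CD8a and other lineage markers, and the B cells were resting CD43- cells. Per the study's methods, each sample pooled cells of several mice. The 2 samples of a group share 1 file, and whether it joins them or holds 1 of them is not settled: the file's name ends in the number of 1 of the samples, but the labels of both point to it. The data are therefore 4 libraries without replicates within a group. In every comparison of B with T cells the female and the male library of a cell type stood in for replicates, and p-values measure only the spread among these 4 libraries.

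Methylation of CpGs is copied at each cell division, and active gene starts in CpG-rich sequence are normally free of it. The genes below work at successive steps of T cell formation: TCF-1 and GATA-3 act early after Notch signalling, BCL11B at commitment to the lineage, RUNX factors and ThPOK at the choice between CD8 and CD4 cells. Several of them, such as ETS1, RUNX1, RUNX3 and SATB1, also have known roles in B or other blood cells.

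The labels were checked against 24 marker genes at their transcript starts. All 10 starts of the 9 T cell markers were called lower in T cells (at most 24.4% in a T library and at least 43.8% in a B library), and all 8 starts of the 6 B cell markers were called lower in B cells. The starts of Cd8a and Cd8b1 were also called lower in T cells, at 29.2% to 57.2% against 84.7% to 91.6% in B cells, although CD8a+ cells had been depleted. No start of the 2 NK and 5 myeloid markers was called. The part of such cells in the values below was not tested.

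Sequences in which B and T cells differed strongly are shown first, to give the context of the CpGs at the extreme of the differences described below. Most called tiles differed less than these. Each is the 300-base window with the largest mean CpG difference in a called 1-kb tile of its gene, the most different tile overall for Tcf7 and Lef1 and the most different of those higher in T cells for Ets1, read from GRCm38 on the plus strand, with CG dinucleotides in capitals. The tile of Satb1 held no window with at least 4 listed CpGs, and none is shown for it. The first 2 windows were methylated in B cells and the last in T cells.

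Tcf7 intron 2, chr11:52278321-52278620: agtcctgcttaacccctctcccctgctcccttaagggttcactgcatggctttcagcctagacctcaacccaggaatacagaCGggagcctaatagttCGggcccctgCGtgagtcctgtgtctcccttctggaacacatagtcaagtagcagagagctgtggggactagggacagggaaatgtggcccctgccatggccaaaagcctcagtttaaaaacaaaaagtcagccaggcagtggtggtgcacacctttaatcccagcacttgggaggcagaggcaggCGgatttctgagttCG
Lef1, tile over exon 3, chr3:131115601-131115900: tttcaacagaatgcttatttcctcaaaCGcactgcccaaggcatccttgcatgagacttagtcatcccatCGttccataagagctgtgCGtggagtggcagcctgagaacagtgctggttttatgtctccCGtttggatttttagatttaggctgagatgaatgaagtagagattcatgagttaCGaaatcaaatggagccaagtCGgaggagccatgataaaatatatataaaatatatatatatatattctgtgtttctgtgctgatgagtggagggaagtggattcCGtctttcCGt
Ets1, upstream of the coding start, chr9:32679661-32679960: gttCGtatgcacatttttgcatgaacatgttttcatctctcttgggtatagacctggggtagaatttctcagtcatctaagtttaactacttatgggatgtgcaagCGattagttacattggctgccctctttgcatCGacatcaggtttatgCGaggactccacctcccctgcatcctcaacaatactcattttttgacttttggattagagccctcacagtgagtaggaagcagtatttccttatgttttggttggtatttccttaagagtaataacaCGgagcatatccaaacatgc

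The 5 CpGs of the Tcf7 window were methylated in 108 of 110 and 53 of 55 reads of female and male B cells. In T cells they were methylated in 0 of 142 and 0 of 116 reads. If all of these were independent, a share of up to 2.11% and 2.59% would be allowed. Reads were added up over the CpGs, so a read that covers several CpGs counts at each of them. The limits are therefore too low.

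Of the 8 CpGs in the Lef1 window, 6 were listed in every library, and these were methylated in 71 of 71 and 71 of 76 reads of female and male B cells. The same 6 CpGs were methylated in 0 of 99 reads in female T cells (up to 3.03%) and 1 of 81 in male T cells. The Ets1 window had the opposite pattern at its 4 listed CpGs, with 4 of 51 and 0 of 35 methylated reads in female and male B cells (up to 8.57% for the latter) and 68 of 80 and 57 of 61 in T cells. The windows were chosen for their difference, so these values are a description.

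Short strings that resemble binding sites of the factors themselves were looked for on both strands of these windows. The string for RUNX factors was TGTGGT, that for ETS factors was CAGGAA and that for GATA factors was AGATAA. For TCF-1 and LEF-1 the string was CTTTGA, and for factors that bind E-boxes it was CAGCTG. None of the 5 strings contains another. The Tcf7 window held 1 ETS string, which 28.4% of the 300-base windows centred on 1530528 tested tiles also held. The Lef1 and Ets1 windows held none of the 5 strings. These are matches of letters and say nothing of what binds there.

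Across the 10 loci, large parts of the genes were methylated in B cells and much less so in T cells. Of 1312 tested 1-kb tiles, 500 (38.1%) were called higher in B cells and 12 (0.915%) higher in T cells, against 2.36% and 0.812% of 1530528 tiles genome-wide (3.17% in either direction) and 3.03% and 0.974% of the tiles within 20 kb of a protein-coding gene. A tile was called when the adjusted p of edgeR's quasi-likelihood test, adjusted over all tiles, was under 0.05 and the mean of the 2 B levels differed from that of the 2 T levels by at least 20 percentage points. Over the tiles of these loci the difference had a median of 11.4 points, and over all tiles of 0.788 points. Without a minimum difference 817 tiles passed the adjusted p, where 9.32% of all tiles did. Of the 512 called tiles, 482 differed by 20 points within each sex, which the call on the same 4 libraries partly fixes.

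The levels in T cells were often intermediate. Of the 500 tiles called higher in B cells, 373 were over 80% in both B libraries, 185 were under 20% in both T libraries and 293 lay between 20% and 80% in both. In 98 tiles both B libraries were over 80% and both T libraries under 20%. In bulk samples, a mixture of cells and partial methylation within cells cannot be told apart.

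**Figure D1:**
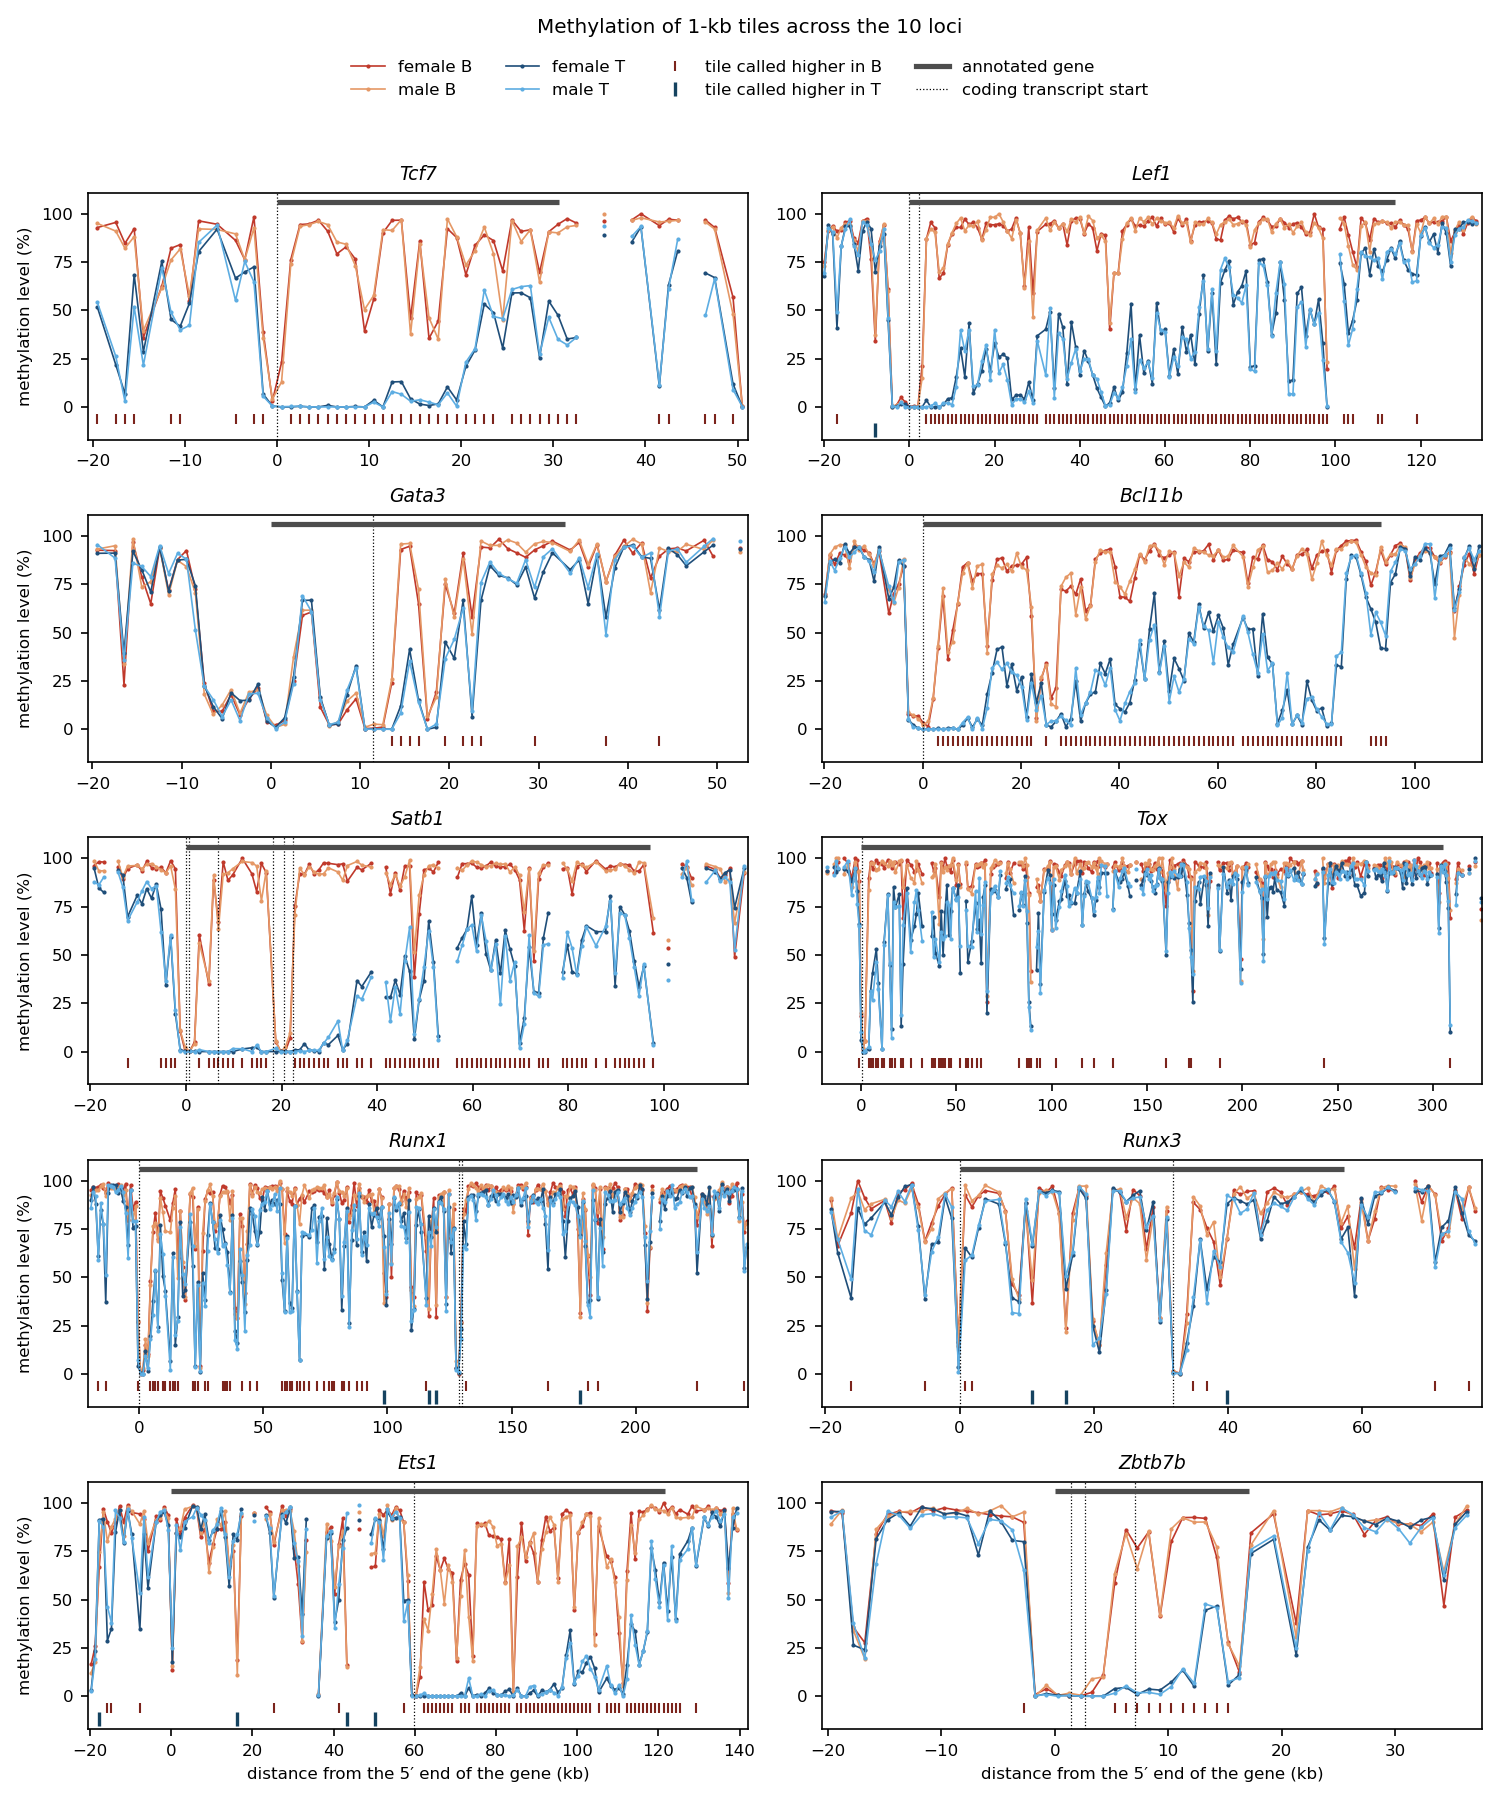
Methylation level (%) of each tested 1-kb tile against its distance in kb from the annotated 5′ end of the gene, in the 4 libraries, for the 10 loci; ticks under the profiles mark called tiles, grey bars the gene and dotted lines the coding transcript starts. T cell levels near 0 reach far past the starts of Tcf7, Satb1 and Ets1, while in Runx3 the 4 libraries mostly run together.

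The called tiles lay inside the genes more than beside them, and shares by place were not worked out over all loci. Of exon tiles 52 of 89 were called, all higher in B cells, and of 843 intron tiles 47.7% were called, 10 of them higher in T cells. In the 20-kb flanks the numbers were lower, at 23 of 166 upstream and 21 of 160 downstream for tiles higher in B cells, and within 1 kb of a transcript start 12 of 54 were called. Called tiles also stood next to each other: 12 runs of at least 10 called tiles, with no more than 1 other tile between neighbours, held 354 of the 500 tiles higher in B cells. All 12 tiles higher in T cells stood alone.

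The HMG-box factors TCF-1 and LEF-1, encoded by Tcf7 and Lef1, act with beta-catenin and in their own right to set up the T cell programme. Tcf7 (ENSMUSG00000000782.15, chromosome 11, 52252371 to 52283014, minus strand) had 45 of 59 tiles called higher in B cells, the highest share among the 9855 loci with at least 50 tested tiles. Beyond its first 1 kb the gene body was methylated at 78.5% in female and 77.9% in male B cells and in T cells at 13.5% and 14.0%. This difference of 64.5 points (edgeR, adjusted p = 1.92e-21) ranked 5 of 18671 gene bodies, of which 5% were called higher in B cells and 0.509% higher in T cells (5.51% in either direction), with a median difference of 1.31 points.

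The most different tile of Tcf7, in intron 2 (52278001 to 52279000), was at 96.6% in female B cells (95% Wilson interval 92.9% to 98.5%) and 96.0% in male B cells (90.2% to 98.4%). Both T libraries had 0 methylated reads there, of 210 and 180, which allows up to 1.43% and 1.67%. The longest run of Tcf7 spanned 32 kb, from 1 kb inside the gene to beyond its 3′ end, with 31 called tiles, and its level was 79.2% and 78.6% in female and male B cells against 14.4% and 14.6% in T cells. Shorter runs of 4 kb and 5 kb lay in the upstream flank.

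Lef1 (ENSMUSG00000027985.14, chromosome 3, 131110471 to 131224356, plus strand) carried the longest run of the 10 loci, 95 kb with 94 called tiles from 131114001 to 131209000. The run was methylated at 90.6% and 90.0% in female and male B cells, against 27.4% and 25.7% in female and male T cells, so B cells were near full methylation and T cells at intermediate levels. Its most different tile, over exon 3, stood at 95.5% and 92.1% in B cells against 0% (0 of 223 reads, up to 1.35%) and 0.535% in T cells. In all, 101 of the 151 tiles of Lef1 were called higher in B cells, and the body beyond the first 1 kb differed by 53.4 points (rank 11). Body levels were 83.8% and 82.7% in B cells of females and males and 30.5% and 29.2% in T cells.

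GATA-3, the zinc finger factor needed at the first steps of the lineage and again in helper cells, and BCL11B, the zinc finger factor that closes off other fates at commitment, differed in extent. Gata3 (ENSMUSG00000015619.10, chromosome 2, 9857078 to 9890034, minus strand) had 11 of 68 tiles called higher in B cells and a body difference of 12.3 points (edgeR, adjusted p = 7.85e-11). The Gata3 body had the lowest B cell levels of the 10 genes, at 34.3% and 35.2% in B cells and 22.2% and 22.7% in T cells. The coding start (9878600) lies inside the annotated gene, so this body holds that start and sequence upstream of it. In 4 equal parts from the coding start to the 3′ end the difference was 29.7, 24.6, 22.7 and 9.24 points. The longest run of Gata3, 5 kb from 9866001 to 9871000 with 4 called tiles, was at 78.2% and 72.2% in B cells and 45.1% and 47.4% in T cells. A run of 4 kb with a larger difference lay closer to the start, from 9873001 to 9877000, at 72.9% and 66.9% in female and male B cells and 15.7% and 13.7% in T cells. In the latter run, the most different tile of Gata3, in intron 2, was at 93.0% and 95.9% in B cells and 12% and 8.27% in T cells.

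Bcl11b (ENSMUSG00000048251.15, chromosome 12, 107910403 to 108003602, minus strand) had 82 of 132 tiles called higher in B cells and a body difference of 51.4 points (rank 14), from 77.9% and 77.8% in B cells to 27.3% and 25.6% in T cells. Its longest run covered 58 kb over exon 3 and parts of the introns beside it with 57 called tiles, at 85.4% and 85.4% in female and male B cells and 25.8% and 23.9% in T cells. A second run of 20 kb lay nearer to the start. The most different tile, in intron 3 some 82 kb from the start, was at 92.8% and 90.1% in B cells and 1.57% and 2.86% in T cells, so a tile nearly free of methylation in T cells lay far from the start.

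SATB1, which organises chromatin loops in thymocytes, and TOX, an HMG-box factor needed for CD4 T cell formation, again differed in extent. Satb1 (ENSMUSG00000023927.15, chromosome 17, 51736187 to 51833290, minus strand) had 78 of 109 tiles called higher in B cells, the second highest share among the loci with at least 50 tested tiles, and a body difference of 52.8 points (rank 13), with 74.1% and 77.8% in B cells and 23.1% and 23.2% in T cells. The most different tile of the 10 loci, in intron 1 of its longest transcript, was at 100% in female B cells (69 reads, interval 94.7% to 100%) and 98.4% in male B cells. The same tile was at 1.35% in female and 1.45% in male T cells. The run that holds it, 15 kb downstream of the first starts that includes start 3, was at 81.8% and 81.0% in B cells and 0.513% and 0.492% in T cells. Further 3′, 2 runs of 20 kb each were at 89.9% to 94.6% in B cells and at 43.9% to 50.4% in T cells.

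Tox (ENSMUSG00000041272.11, chromosome 4, 6686353 to 6991557, minus strand) is the longest of the genes, and 46 of its 246 tiles were called higher in B cells, in 22 separate runs. Its body differed by 14.3 points (edgeR, adjusted p = 9.1e-18), from 89.2% and 90.4% in female and male B cells to 74.4% and 76.5% in T cells. Its longest run, 11 kb of intron 1 from 6944001 to 6955000 with 9 called tiles, was at 94.6% and 92.8% in B cells and 66.9% and 63.4% in T cells. A shorter run of 9 kb in intron 1 with a larger difference stood at 95.6% and 94.8% in B cells and 34.4% and 31.1% in T cells, and its most different tile, also the most different of Tox, at 97.2% and 98.9% in B cells and 1.11% and 1.14% in T cells.

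In both RUNX genes tiles were called in either direction. RUNX1 acts in all blood lineages and RUNX3 chiefly in CD8 T and NK cells, and both genes have a distal and a proximal start. Runx1 (ENSMUSG00000022952.17, chromosome 16, 92601466 to 92826149, minus strand) had 52 of 258 tiles called higher in B cells and 4 higher in T cells (1.55%, against 0.812% of all tiles). Its body differed by 13.1 points (edgeR, adjusted p = 4.13e-16), the levels being 81.6% and 82.7% in B cells and 69.4% and 68.7% in T cells. Of the 52 tiles, 44 lay between the distal start (92826149) and the proximal start (92697328), a stretch whose tested tiles were not counted. The longest runs, of 12 kb each, were in intron 2. One of these, near the distal start, was at 78.2% and 74.2% in female and male B cells and 33.3% and 33.4% in T cells. The most different tile of Runx1, also in intron 2 (92761001 to 92762000), was at 90.8% and 77.8% in B cells and 7.23% and 7.0% in T cells, the widest gap between the sexes among the named tiles.

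Runx3 (ENSMUSG00000070691.10, chromosome 4, 135120652 to 135177990, plus strand) was the least different of the 10 genes. With 8 tiles higher in B cells and 3 higher in T cells out of 92, its share was 8.70% and 3.26%, and its body, at 66.9% and 65.0% in female and male B cells and 62.5% and 61.3% in T cells, was not called. That difference of 4.01 points had an adjusted p of 0.000205 (edgeR) but stood under the minimum of 10 points for bodies, at rank 3766 of 18671, and the adjusted p was 0.0889 with limma and 0.0635 without male T cells. Its longest run, 3 kb from 135155001 to 135158000 with 2 called tiles, was at 84.6% and 85.7% in B cells and 46.3% and 46.7% in T cells. Its most different tile, over exon 3, was at 88.8% and 91.7% in B cells and 35.2% and 39.7% in T cells.

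ETS1, the ETS family factor that T cells express highly and that B cells also use, had both long runs higher in B cells and single tiles higher in T cells. Ets1 (ENSMUSG00000032035.15, chromosome 9, 32636221 to 32757820, plus strand) had 65 tiles called higher in B cells and 4 higher in T cells of 142, and a body difference of 33.0 points (rank 65), between 67.4% and 67.9% in B cells and 34.4% and 35.0% in T cells. Its longest run covered 64 kb from 32698001 to 32762000 with 58 called tiles, from 2 kb past the first coding start to beyond the 3′ end of the gene, at 73.7% and 73.1% in female and male B cells and 11.8% and 11.6% in T cells. The most different tile, over exon 4, was at 94.3% and 91.6% in B cells and 4.34% and 4.53% in T cells. The Ets1 body also holds annotated sequence upstream of its first coding start (32696022). In 4 equal parts from that start to the 3′ end the difference was 33.7, 70.3, 72.4 and 52.0 points.

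Zbtb7b encodes ThPOK, the zinc finger factor that commits thymocytes to the CD4 helper lineage. Its locus (ENSMUSG00000028042.15, chromosome 3, 89377644 to 89394776, minus strand) is the shortest and holds 4 other coding genes in its flanks. All but 1 of the 12 tiles called higher in B cells, of 55, formed a single run of 11 kb over the gene, at 72.3% and 71.3% in female and male B cells and 15.6% and 16.0% in T cells. The most different tile of Zbtb7b, in intron 1 (89382001 to 89383000), was at 92.6% and 90.1% in B cells and 5.13% and 6.67% in T cells. The body, at 45.3% and 48.5% in B cells and 10.6% and 10.5% in T cells, differed by 36.4 points (rank 52), while the 20-kb flanks differed by only 4.03 points upstream and 3.07 points downstream.

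The members thus fell into a wide range on the same measure. In Gata3 and Ets1 that measure takes in more annotated sequence upstream of the first coding start. Over whole loci, flanks included, the B minus T difference was 43.6 points for Satb1, 42.9 for Tcf7, 36.7 for Lef1, 35.8 for Bcl11b and 27.7 for Ets1. It was 14.4 points for Tox, 13.0 for Zbtb7b, 11.9 for Runx1, 8.28 for Gata3 and 5.32 for Runx3. By gene body 9 of 10 were called higher in B cells and none lower, with a median difference of 34.7 points.

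Single CpGs told the same of the extremes. In the body of Tcf7, 38.6% of 440 CpGs were over 80% in B cells and under 20% in T cells, on the reads of both libraries of a cell type, as were 28.2% in Lef1, 24.2% in Bcl11b, 24.2% in Satb1, 20.4% in Ets1 and 18.6% in Zbtb7b. Across all CpGs 0.30% were in this class. In Gata3 the share was 4.96%, in Tox 2.77%, in Runx1 2.05% and in Runx3 0.962%. CpGs of the reverse class, under 20% in B and over 80% in T cells, were absent from the bodies of 7 genes and made up 0.626% in Ets1, 0.263% in Runx3 and 0.225% in Runx1, against 0.12% of all CpGs.

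The transcript starts, in contrast, were mostly unmethylated in both cell types. The 10 genes have 21 separate coding transcript starts (starts under 500 bases apart were joined), and 12 of the windows of 1 kb on either side were under 5% in all 4 libraries. They lay at starts of Lef1, Gata3, Bcl11b, Satb1, Tox, Runx1 (start 2), Ets1 and Zbtb7b. The share of all starts genome-wide under 5% was not worked out. Windows at 4 starts were called, all higher in B cells, against 1.35% of 26863 start windows genome-wide called higher in B cells and 0.57% higher in T cells (1.92% in either direction). Without a minimum difference 13 starts passed the adjusted p, all higher in B cells, as did 20.8% of all starts in either direction. Fits without 1 library had no sex term, and the lone library of a cell type was taken to vary like the pair of the other. Of the 13 starts, 9 passed when all 4 libraries were fitted without the sex term. Fewer passed on leaving out either T library, and no fewer on leaving out either B library. With a T library left out, only the B libraries gave a start's own spread, and with a B library left out only the T libraries did. How far this set the numbers of starts that passed was not tested. The median difference of the 21 windows was 3.39 points against 0.931 over all starts.

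**Figure D2:**
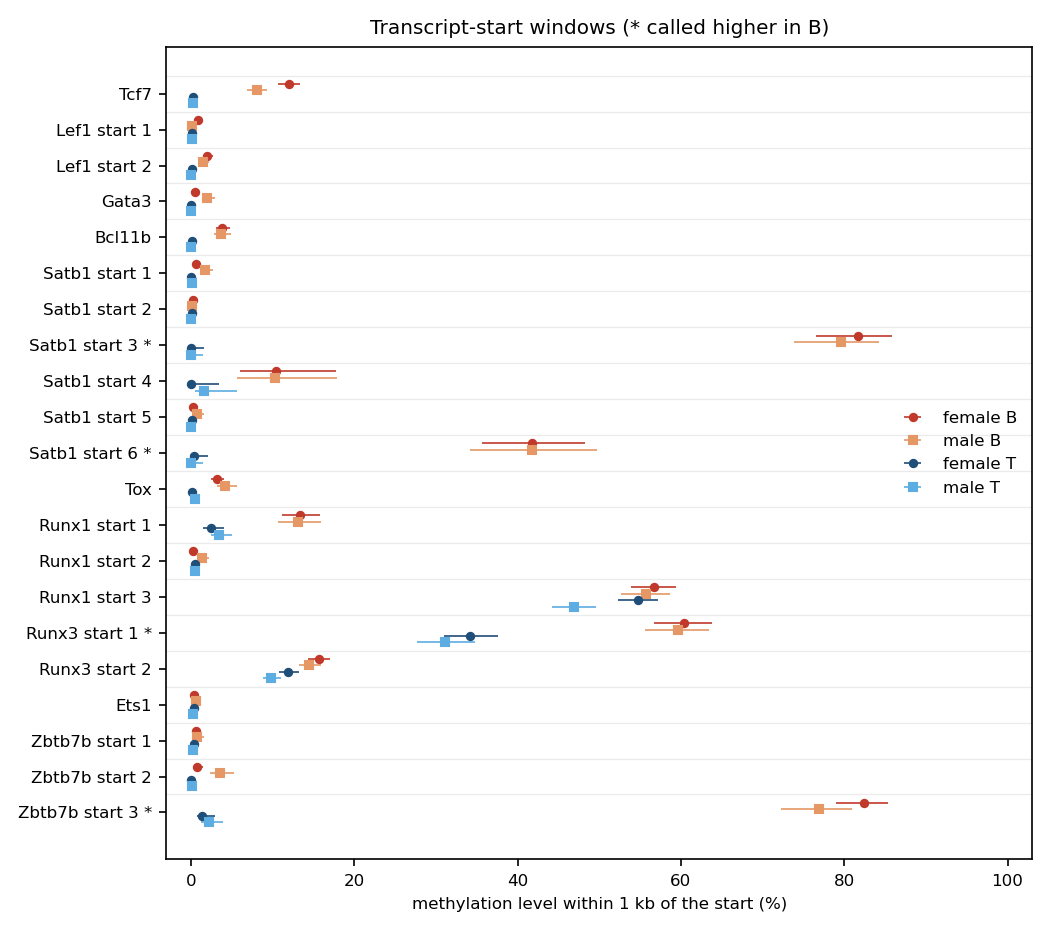
Methylation level (%) within 1 kb of each of the 21 coding transcript starts in the 4 libraries, with 95% Wilson intervals as bars; an asterisk marks the 4 starts called higher in B cells. Start 3 of Satb1 and start 3 of Zbtb7b stand near 80% in B cells and near 0 in T cells, and most first starts are near 0 in all libraries.

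The called windows held 16 to 41 CpGs, and all but that of the distal Runx3 start were at internal starts. Start 3 of Satb1 (51826588, transcripts Satb1-203 and Satb1-213) was at 81.7% in female B cells (interval 76.5% to 85.9%) and 79.6% in male B cells. In T cells it had 0 methylated reads of 246 and of 265, which allows up to 1.22% and 1.13%. Start 6 of Satb1 (51810919, Satb1-214) was at 41.8% and 41.7% in female and male B cells, against 0.368% and 0% in T cells (0 of 253 reads in males, up to 1.19%). Its difference of 41.6 points became 70.6 points within 500 bases of the start and 29.0 points with CpGs of at least 10 reads. The other 4 starts of Satb1 were at most 10.5% in any library.

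Start 3 of Zbtb7b (89387671, Zbtb7b-203 and Zbtb7b-204) was at 82.4% and 76.9% in female and male B cells, against 1.41% and 2.19% in T cells, a difference of 77.8 points. Its adjusted p was 9.92e-143 in edgeR, where the spread was shared by all starts, and 0.000934 without the sex term, 0.00362 with limma and 0.00497 to 0.0162 on leaving out a library. The upstream starts 1 and 2 of Zbtb7b were at most 3.56% in any library. The distal start of Runx3 (135120652, Runx3-201) was at 60.3% and 59.6% in B cells and at 34.2% and 31.1% in T cells, a difference of 27.3 points (adjusted p = 3.41e-11). Leaving out a T library changed the difference little, to 28.8 points without female and 25.8 points without male T cells, but the adjusted p did not pass (edgeR, 0.0925 and 0.112), where only the B libraries gave this start's own spread. The start was also not called with windows of 500 bases on either side, where the difference was 12.1 points.

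Among the starts not called, the Tcf7 start was at 11.9% and 8.05% in female and male B cells and 0.267% and 0.266% in T cells, and the distal start of Runx1 at 13.3% and 13.1% against 2.44% and 3.48%. Both passed the adjusted p but stayed at about 10 points, and within 500 bases of the start the differences were 1.03 points for Tcf7 and 3.12 points for Runx1. With 1 T library left out in the same way the Runx1 start was at 9.73 points (adjusted p = 0.0833) without female and 10.8 points (adjusted p = 0.0501) without male T cells. The proximal starts of Runx1 and Runx3 did not pass (adjusted p = 0.648, 0.417 and 0.139), including start 3 of Runx1, whose window overlaps that of start 2 and was at 46.9% to 56.7% in all 4 libraries.

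The 250 bases upstream of 2 of the called starts are shown because they differ in where the methylation lies; these were chosen after their values were seen. They are written in the direction of transcription (minus strand for Satb1, plus for Runx3), 5′ to 3′, with CG in capitals, and end at the base before the start.

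Satb1 start 3, chr17:51826589-51826838: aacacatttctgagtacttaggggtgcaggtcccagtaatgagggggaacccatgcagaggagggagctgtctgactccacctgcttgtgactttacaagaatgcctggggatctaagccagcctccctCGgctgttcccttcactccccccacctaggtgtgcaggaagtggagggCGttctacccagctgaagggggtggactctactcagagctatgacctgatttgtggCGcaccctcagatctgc
Runx3 start 1, chr4:135120402-135120651: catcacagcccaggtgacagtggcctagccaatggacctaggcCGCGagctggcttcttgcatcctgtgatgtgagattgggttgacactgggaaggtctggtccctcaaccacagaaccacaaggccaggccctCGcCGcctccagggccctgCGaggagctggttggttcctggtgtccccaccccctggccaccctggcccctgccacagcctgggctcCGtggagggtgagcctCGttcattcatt

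The 3 CpGs upstream of start 3 of Satb1 were at 52.1% of 48 reads in female and 22.9% of 35 reads in male B cells, with 0 of 62 and 0 of 49 methylated reads in T cells (up to 4.84% and 6.12%). The 7 CpGs upstream of the distal Runx3 start were nearly unmethylated in both cell types, at 7.45% and 2.56% in female and male B cells and 0 of 176 and 0 of 140 reads in T cells (up to 1.70% and 2.14%). The whole Runx3 window, which these 250 bases are part of, differed by 27.3 points. The Runx3 sequence held 2 matches to the RUNX string on the opposite strand, a string found on either strand in 13.0% of the same upstream windows over 28470 starts, and 1 ETS match (24.3%). The Satb1 sequence held 1 ETS and 1 E-box match (12%).

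The width of the unmethylated region around the starts separated the cell types where the level at the starts did not. It was measured as the longest stretch touching the start window in which the level over 5 neighbouring CpGs stayed under 20%, with no gap over 2 kb between CpGs. At 15 of 21 starts both T libraries had a stretch at least 1 kb wider than both B libraries, and at 0 the reverse held, against 1.63% and 0.305% of 26863 starts genome-wide. Starts that share a stretch are not independent, and the 15 belong to 7 genes. This is a description with no test.

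**Figure D3:**
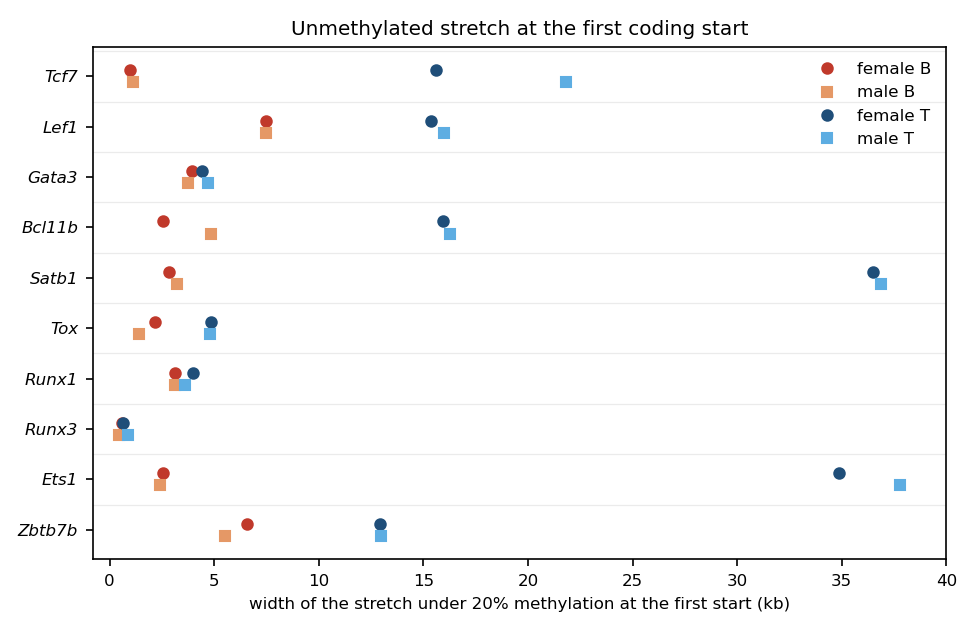
Width in kb of the stretch under 20% methylation at the first coding start of each gene, 1 point a library. In Satb1 and Ets1 the T libraries reach 34.9 to 37.8 kb and the B libraries at most 3.25 kb, while for Gata3, Runx1 and Runx3 all 4 points lie within 1 kb.

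At the first start of Satb1 the stretch was 2.86 and 3.25 kb wide in female and male B cells and 36.5 and 36.9 kb in T cells. For Ets1 it was 2.57 and 2.44 kb in B cells and 34.9 and 37.8 kb in T cells, and in T cells it covered 55.0% and 59.7% of the way from the start to the 3′ end of the gene. For Tcf7 it grew from 0.978 and 1.13 kb to 15.6 and 21.8 kb, and for Bcl11b from 2.56 and 4.86 kb to 16.0 and 16.3 kb. Ets1 and Tcf7 had the least even widths between the T libraries, and even there both T libraries stood far above both B libraries.

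For Lef1 the stretch was already 7.50 kb wide in both B libraries and measured 15.4 and 16.0 kb in T cells. Zbtb7b went from 6.60 and 5.54 kb in B cells to 12.9 and 13.0 kb in T cells, and Tox from 2.15 and 1.39 kb to 4.88 and 4.80 kb. Gata3 (3.94 and 3.76 kb against 4.43 and 4.71 kb), the distal start of Runx1 (3.14 kb in both B libraries against 3.99 and 3.61 kb) and that of Runx3 (0.596 and 0.477 kb against 0.650 and 0.885 kb) did not reach the 1-kb margin. In most genes the stretch grew downstream: in Satb1 it extended 34.8 kb into the gene in both T libraries and 1.72 and 2.04 kb upstream.

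**Figure D4:**
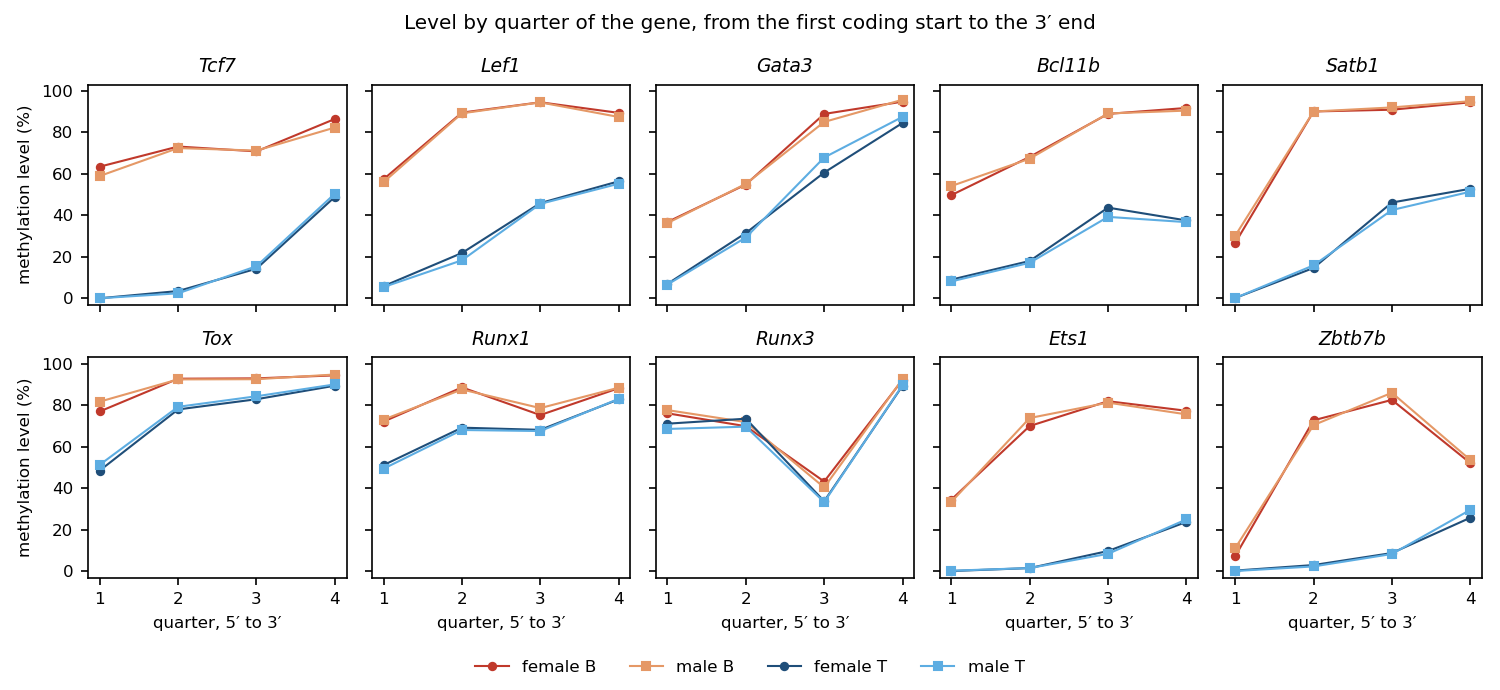
Methylation level (%) in 4 equal parts of each gene from its first coding start to its 3′ end, in the 4 libraries. In T cells the level climbs from the 5′ to the 3′ part in Tcf7, Lef1, Satb1 and Ets1, and B cells reach high levels by the second part in Lef1, Satb1 and Zbtb7b.

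In most of the genes T cell levels were higher farther from the start. In Tcf7 they were 0.100% and 0.111% in female and male T cells over the first of 4 equal parts of the gene, 3.57% and 2.48% over the second, 14.3% and 15.5% over the third and 48.9% and 50.4% over the last. In Ets1 the same parts went from 0.199% and 0.352% through 1.62% and 1.63% and then 9.84% and 8.49% to 23.8% and 25.1%. B cells were at 63.4% and 59.0% in the first part of Tcf7 and at 34.6% and 33.5% in that of Ets1, and at 86.4% and 82.3% and at 77.4% and 75.6% in the last.

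In Lef1 the T cells went from 5.92% and 5.49% in the first part to 56.4% and 55.2% in the last, and in Satb1 from 0.227% and 0.204% to 52.8% and 51.4%. Bcl11b was the exception among the strongly different genes, with 43.7% and 39.3% in the third part and 37.6% and 36.7% in the last, so its difference was largest at the 3′ end (53.9 points). In Tox and Runx1 the difference shrank from 29.4 and 22.3 points in the first part to 4.87 and 5.38 points in the last. In Runx3 no part differed by more than 8.27 points.

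The tiles higher in T cells were 0.915% of the tested tiles, near the 0.812% of all tiles genome-wide. At least 1 such tile lay in 28.9% of all protein-coding loci, which hold fewer tested tiles on average. The 12 tiles (7 with limma) lay in 4 genes: 4 in Ets1, 4 in Runx1, 3 in Runx3 and 1 in Lef1. The most different was in Ets1 (32679001 to 32680000), in an intron of the annotated gene some 16.5 kb upstream of the first coding start. Its level was 16.1% in female and 15.3% in male B cells and 87.0% and 94.9% in T cells, so that B minus T came to -75.3 points (edgeR, adjusted p = 1.58e-33). A second Ets1 tile (32652001 to 32653000) was at 18.7% and 11.2% in B cells and 80.9% and 84.2% in T cells. Next to the first of them, the Ets1 tile from 32678001 was at 92.1% and 85.6% in B cells and 80.7% and 76.7% in T cells and was not called.

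In Runx1 the tile most methylated in T over B cells was in intron 2 (92709001 to 92710000), 12.2 kb upstream of the proximal start, at 30.1% and 33.5% in female and male B cells and 81.9% and 73.5% in T cells. The next tile (92710001 to 92711000) had the opposite sign, at 63.7% and 70.9% in B cells and 39.2% and 35.8% in T cells, so neighbouring kilobases of 1 intron were called in opposite directions. The Lef1 tile lay 7.97 kb upstream of the start and was at 34.0% and 37.2% in B cells and 70.1% and 75.9% in T cells. The largest of the 3 in Runx3, in intron 1, was at 23.9% and 21.5% in B cells and 44.0% and 50.6% in T cells, and limma on log ratios did not call it (adjusted p = 0.121).

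Female and male libraries of a cell type mostly ran together in these loci. Between the sexes edgeR called 0 of the 1312 tiles (86 had an unadjusted p under 0.05, and limma also called 0), against 0.0865% of all tiles and 0.00134% of autosomal ones. None of the 10 genes is on the X chromosome. The largest sex difference of a tile was 18.2 points, averaged over both cell types, which can hide a larger gap within 1 cell type. For the difference between the sexes in B minus T itself 0 tiles were called as well (68 with an unadjusted p under 0.05, limma 0), against 0.000849% of all tiles. It was measured as the mean of female B and male T levels minus that of female T and male B levels. This value is smaller than the gap between the sexes in B minus T, so the minimum of 20 points was stricter here. Its largest absolute size was 20.2 points, and without a minimum difference 0 tiles passed the adjusted p.

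Other transcription factor genes of lymphocytes had a smaller share of called tiles. Over the loci of 30 such genes, 538 of 3583 tiles (15.0%) were called higher in B cells and 85 (2.37%) higher in T cells. At least 1 tile higher in B cells was found in 26 of the 30 genes and in 48.1% of all loci, which hold fewer tested tiles on average. The most tiles called higher in B cells were in Bach2 (119 of 335), Foxp1 (93 of 594) and Ikzf1 (43 of 94). By share, Ikzf1 stood at 45.7%, beside Ets1 at 45.8%. Foxo1 (35.8%), Bach2 (35.5%), Elf1 (28.6%), Stat5b (27.7%) and Patz1 (26.9%) followed. Each of these loci outside the T lineage list was above Zbtb7b (21.8%), Runx1 (20.2%), Tox (18.7%), Gata3 (16.2%) and Runx3 (8.70%). No tile higher in B cells was called in Tcf3, Hes1, Maf and Sox4. Among the 10 genes of the T lineage the median share per locus was 33.8%, among the 30 it was 8.92%, and over all protein-coding loci it was 0%.

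The loci of 10 B lineage factor genes in sum had the reverse balance, with 52 of 1207 tiles (4.31%) higher in B cells and 95 (7.87%) higher in T cells. Of the 10 loci, 7 had more tiles higher in T cells and 3 more higher in B cells (Ikzf3 with 14 against 8, Irf4 with 8 against 4 and Spi1 with 4 against 3). The highest shares higher in T cells were 28.3% in Irf8, 22.2% in Spib and 15.2% in Pou2af1. All 10 of these loci had at least 1 tile higher in T cells, as did 4 of the 10 T lineage loci and 28.9% of all loci, which hold fewer tested tiles on average. These lists are set side by side and the difference between them was not tested.

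**Figure D5:**
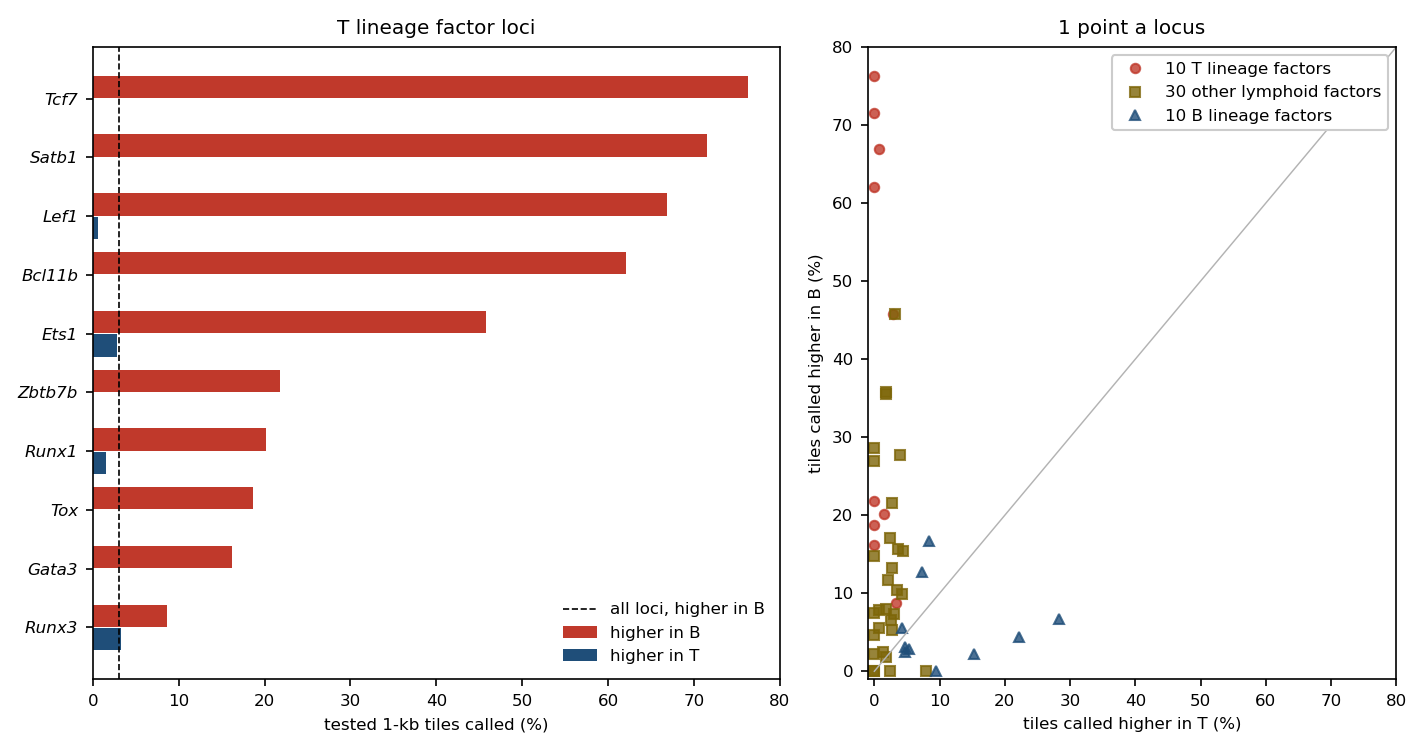
Left, percent of tested 1-kb tiles called higher in B cells and higher in T cells at each of the 10 loci, with the share called higher in B cells over all protein-coding loci (3.05%) as a dashed line. Right, the same percentages for each locus of the 3 gene lists, where points above the diagonal have more tiles higher in B cells; Tcf7, Satb1, Lef1 and Bcl11b lie above 60%.

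By the share of tiles called higher in B cells, Tcf7 (76.3%), Satb1 (71.6%), Lef1 (66.9%) and Bcl11b (62.1%) were the first 4 of the 9855 loci with at least 50 tested tiles. Ets1 was at position 16, Zbtb7b at 169, Runx1 at 204, Tox at 246, Gata3 at 356 and Runx3 at 1046. Outside the list, loci with high shares, and so like these 4, were Znrf1 (60.2%), Cd247 (58.3%), Ugcg (55.7%) and Rhoh (52.8%). Of these, Cd247 encodes the zeta chain of the T cell receptor complex.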

How the data were processed

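The authors deposited, for each group, the methylation level of every CpG with at least 5 reads as a fraction and its number of reads as a count. The submitters' processing notes name Trim Galore, FastQC, Bismark 0.13.1 and mm10. The deposited fractions were rounded up to 3 decimals, so methylated reads were recovered as whole numbers for 100% of levels. Reads at CpGs numbered 280919817 to 354634149 a library (median 13 to 17 a CpG). Intervals and limits for counts of 0 (3 counts) cover counting error only, and treat reads at different CpGs as independent. A read that covers several CpGs was counted at each of them. Where CpGs lie close together, the intervals are therefore too narrow and the limits too low, by an amount that was not measured.

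Only CpGs present in all 4 libraries were used, with their reads added up in 1-kb tiles and start windows (at least 5 CpGs and 20 reads in every library) and in gene bodies without their first 1 kb (at least 20 CpGs). Methylated and unmethylated counts were fitted genome-wide with edgeR 4.0.16 (glmQLFit, glmQLFTest; R 4.3.3), with terms per library, for methylation, and for cell type and sex on methylation, and tested on simulated data. The common dispersion came from at most 20000 regions of each kind (0.00762 for tiles, 0.0103 for starts and 0.00134 for bodies). In tiles and starts the spread was shared by all regions, which most alternatives for starts did not do. Adjusted p-values are Benjamini-Hochberg over all regions of a kind. Alternatives used limma 3.58.1, no sex term, no minimum difference, other tile sizes and minimums, and leaving out each library.

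The members and lists were chosen with earlier results of these data known. Within each member the most different called tile in each direction, the longest run and all starts were named. Sequences were those of the 4 largest named tiles outside UTR exons and the largest in the other direction. Likeness took 5 loci of at least 50 tiles by share called higher in B cells. One of these sequences and one of these loci are not reported here.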

Additional observations from a re-analysis of the deposited data

How the results depend on the processing

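No paired analysis was possible because the replicate numbers of the labels (which the file names also end in, 1 a file) differ between all groups. Without a minimum difference 817 tiles and 13 starts were called, in place of 512 and 4. With 5-kb tiles 112 of 302 were called, all higher in B cells. Leaving out each library gave 515 to 522 tiles, 3 to 4 starts and 9 to 9 bodies. The total counts of tiles, starts, bodies and wide stretches stayed within 1.5 times of those reported under the other alternatives, among them 471 tiles with limma. Of these 7 were higher in T cells, in place of 12, and there were 0 with 5-kb tiles and 9 to 12 on leaving out each library. Other counts were 359 of 954 with CpGs of at least 10 reads in every library and 16 to 17 wide stretches. The differences of named tiles and bodies kept their sign under every alternative run, and only the Runx3 tile higher in T cells lost its call (limma). With CpGs of at least 10 reads, 3 named tiles held too few such CpGs to be tested. They were those of Satb1 and Runx1 higher in B cells and that of Ets1 higher in T cells. The call of start 1 of Runx3 was lost as described above. Differences near 0 changed sign at start 5 of Satb1 (-0.186 points with CpGs of at least 10 reads), at start 2 of Runx1 (-0.252 to 0.83 points on leaving out each library, lowest without male B cells, and -0.355 within 500 bases) and at start 1 of Ets1 (-0.0674 points within 500 bases). Unweighted means of CpG levels lowered the locus differences of 8 genes, most for Satb1 (36.4 points), and raised those of Runx3 and Zbtb7b. With 1 library per group, differences between animals were not measurable.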

Other observations

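At start 2 of Zbtb7b the male B library was above the others, at 3.56% against 0.745% in female B cells, and 0.0981% and 0% in male and female T cells (0 of 1043 reads, up to 0.288%). The sex difference of -1.46 points (female minus male) had an adjusted p of 0.00751 in edgeR and stood far under the minimum of 20 points. Male B cells were above female B cells at 8 of the 21 starts and below at 13.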
